A study of Mus musculus with 4 samples.

Results

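The genes of the IL-10, IL-12, IL-23 and IL-27 cytokines and of their receptor chains were examined in mouse bone marrow-derived macrophages after coculture with MC38 cells, a mouse colon cancer line. Members were taken by gene symbol from the table of reads per gene. They were the ligand subunits Il10, Il27, Ebi3, Il12a, Il12b and Il23a and the receptor chains Il10ra, Il10rb, Il12rb1 and Il23r. All 10 were among the 21878 genes of the table, and 9 had enough reads to be tested. The study concerned lowered Act1 in macrophages and the progression of intestinal adenoma to carcinoma. It compared 2 RNA-seq libraries labelled anti-Act1, from mice with a macrophage-specific knockdown of Act1, with 2 libraries labelled WT. All mice were C57BL/6 aged 8 weeks per the labels, and all macrophages had 48 h of coculture across a porous insert per the labels. The paper gives a shorter coculture in a figure legend, a wider age range, and in part of its methods macrophages of ApcMin/+ mice with or without the anti-Act1 allele. What drives the anti-Act1 allele in macrophages was not given in the sources used here. The WT libraries held 64199075 and 75062945 counts, and the anti-Act1 libraries held 61926229 and 55435063.

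IL-10 acts through a receptor of IL-10RA and IL-10RB, the kinases JAK1 and TYK2 and the factor STAT3, and is known for restraining macrophage activation. IL-12 joins the subunits of Il12a and Il12b and IL-23 those of Il23a and Il12b, and both bind receptors that hold IL-12RB1, whereas IL-27 joins those of Il27 and Ebi3 and binds IL-27RA with gp130. IL-12 is known for driving interferon-γ in T and NK cells, IL-23 for sustaining IL-17-producing cells, and IL-27 for both promoting and limiting T cell responses, while Act1 is the adaptor of the IL-17 receptor.

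The labels were checked first. Traf3ip2, which encodes Act1, had 451 and 572 counts in the WT libraries and 595 and 428 in the anti-Act1 libraries, or 6.98 and 7.54 against 9.63 and 7.84 CPM (counts scaled to a common library total after TMM normalization). The libraries labelled anti-Act1 thus had no less of it, at a log2 fold change of 0.27 with an SE of 0.122 (edgeR adjusted p = 0.117, n = 2 per group). Without anti-Act1 library 1 the log2 fold change of Traf3ip2 was 0.11, and without anti-Act1 library 2 it was 0.41. The paper reports, from measurements other than this RNA-seq, that Act1 was reduced in bone marrow-derived macrophages of anti-Act1 mice. Whether the counted reads cover the part of the transcript that the knockdown affects is not known, so all groups below are named by their labels. Genes of the Y chromosome separated the groups. Ddx3y had 5741 and 7360 counts in the WT libraries and 0 in both anti-Act1 libraries, and Eif2s3y had 4367 and 5546 against 1 and 0. Uty had 2349 and 3053 counts and Kdm5d 2248 and 2716 in the WT libraries, with 0 in both anti-Act1 libraries for each. The sex of the mice and the label therefore cannot be told apart in any difference that follows.

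Markers of macrophages were abundant in all libraries and those of most other cells were scarce. The 6 macrophage markers summed to 6846 and 6941 CPM in the WT libraries and 6187 and 6451 in the anti-Act1 libraries, with Csf1r, the M-CSF receptor, the most abundant, and 2 of the 6 (Mertk and Itgam, named after their values were seen) were lower by the edgeR test. The 8 markers of dendritic cells, which are known for making IL-12 and IL-23, summed to 5.49 and 4.53 CPM against 4.52 and 4.999, with Clec9a the most abundant, Cd209a at 0 and 0 of the 6 tested called. The 10 markers of T, NK and innate lymphoid cells, which are known for the IL-23 receptor, summed to 794 and 833 CPM against 887 and 857. Nearly all of that was Il7r, at 793 and 831 against 886 and 856 CPM, and 0 of the 3 tested were called. B cell markers summed to 2.91 and 3.18 CPM against 3.69 and 4.03, led by Cd79b. Neutrophil markers summed to 6.04 and 5.78 CPM against 7.16 and 6.37, led by S100a8. Of the 4 neutrophil markers tested, S100a8 was higher (log2 fold change 0.66, edgeR adjusted p = 0.000564) and S100a9, named after its value was seen, was lower (-1.42, edgeR adjusted p = 0.000650). Epithelial markers, which would mark the tumor cells, summed to 0.464 and 0.290 CPM against 0.291 and 0.0916, led by Cdh1, with Krt8 and Krt18 at 0 in all libraries. In these bulk libraries fewer cells of a type and less RNA per cell cannot be told apart, and the part of other cells in the results below was not tested.

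Of the 9 members tested, 3 (Il23a, Il23r and Ebi3) were higher in the anti-Act1 libraries at an edgeR adjusted p under 0.05 and 0 were lower. Of all 12494 genes tested, 20.7% passed the same threshold, 10.9% as higher and 9.76% as lower. The CPM of the groups did not overlap for 6 of the 9 members, beside 57.1% of all genes tested. The median log2 fold change was 0.18 over the 9 members and -0.00457 over all genes tested. These counts are descriptions of the members. Il23a and Il23r passed the filter on low counts only through the anti-Act1 libraries, since the CPM that corresponds to 10 counts in a library of median size (0.159) was reached by both anti-Act1 libraries and by 0 WT libraries, whereas the other 7 passed in all libraries. The counts and the median above include Il23a and Il23r, so they partly reflect that filter. With at least 10 counts in every library, which leaves both out, 1 of 7 members was called, beside 2602 of 11932 genes. The call of Ebi3, Il23a and Il23r each depended on the libraries used, as given with each gene. DESeq2 called 0 of the 8 members to which it gave an adjusted p (it gave none to Il23a and Il12a), with unadjusted p under 0.05 for Il23a, Il23r and Ebi3.

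**Figure D1:**
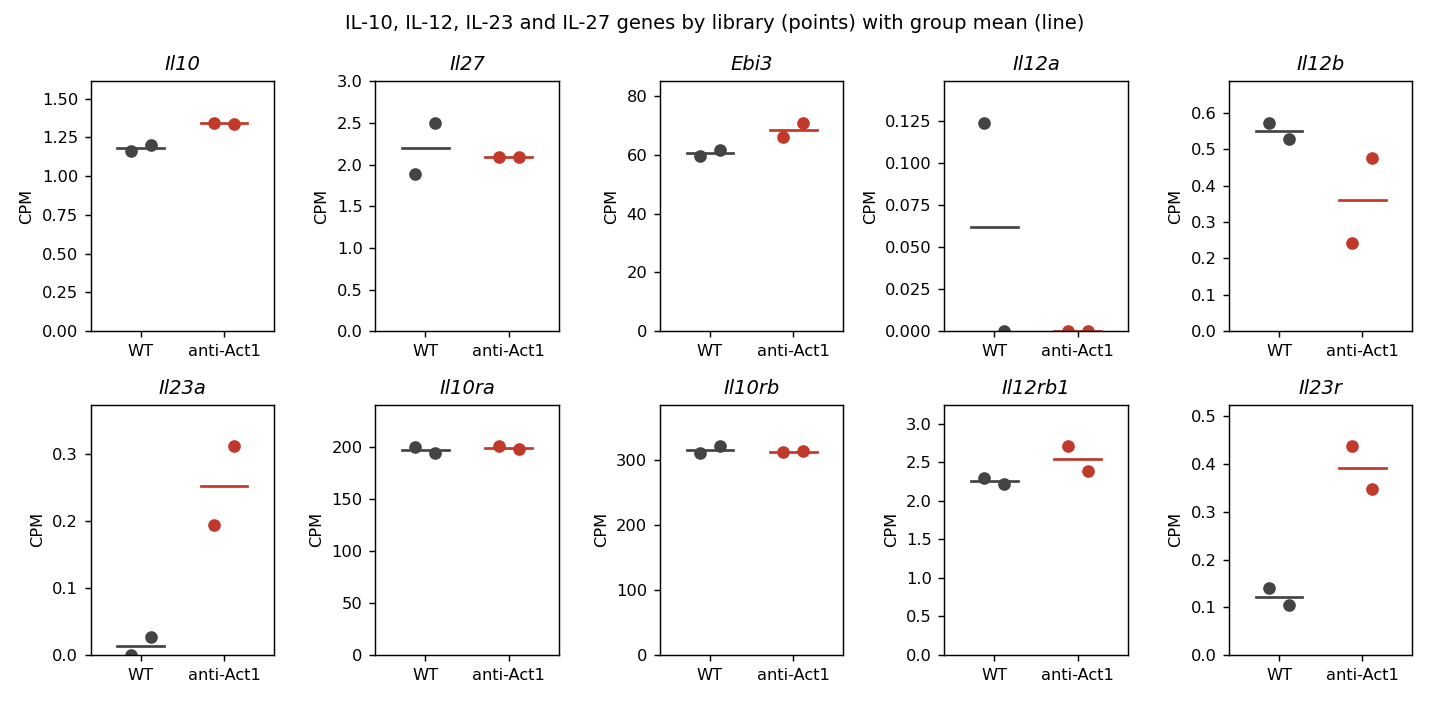
CPM of each member (vertical axes, from 0) in the 2 libraries labelled WT (grey) and the 2 labelled anti-Act1 (red), with a line at each group's mean. Il23a and Il23r were higher in both anti-Act1 libraries at levels under 0.5 CPM, while Il10ra and Il10rb sat at nearly one height in all libraries.

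Levels between members were compared per gene length, as FPKM (reads scaled by gene length and library total) given by the authors. Il10rb, the IL-10 receptor chain that is shared with other cytokines of the family, was highest at a mean of 165 FPKM over the 4 libraries. It was followed by Ebi3 at 64.6 and Il10ra, the chain that binds IL-10, at 56.7 FPKM. A wide gap separated these 3 from the rest. Il27 followed at 2.27 FPKM, Il10 at 0.964 and Il12rb1 at 0.866 FPKM. The ranges of Il10 and Il12rb1 over the libraries overlapped, so their order was not beyond their spread. Il12b at 0.182, Il23r at 0.103, Il23a at 0.0970 and Il12a at 0.0248 FPKM formed the lowest group, and each of these neighbours in the order overlapped the next. Their order differed between the groups. In the WT libraries the means were 0.221 FPKM for Il12b, 0.0496 for Il12a, 0.0496 for Il23r and 0.00980 for Il23a, and in the anti-Act1 libraries they were 0.184 for Il23a, 0.157 for Il23r, 0.142 for Il12b and 0 for Il12a. Ranking by FPKM rescaled to a common total per library gave the same order over the 4 libraries. That rescaling keeps the order within each library, so it was no separate check.

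**Figure D2:**
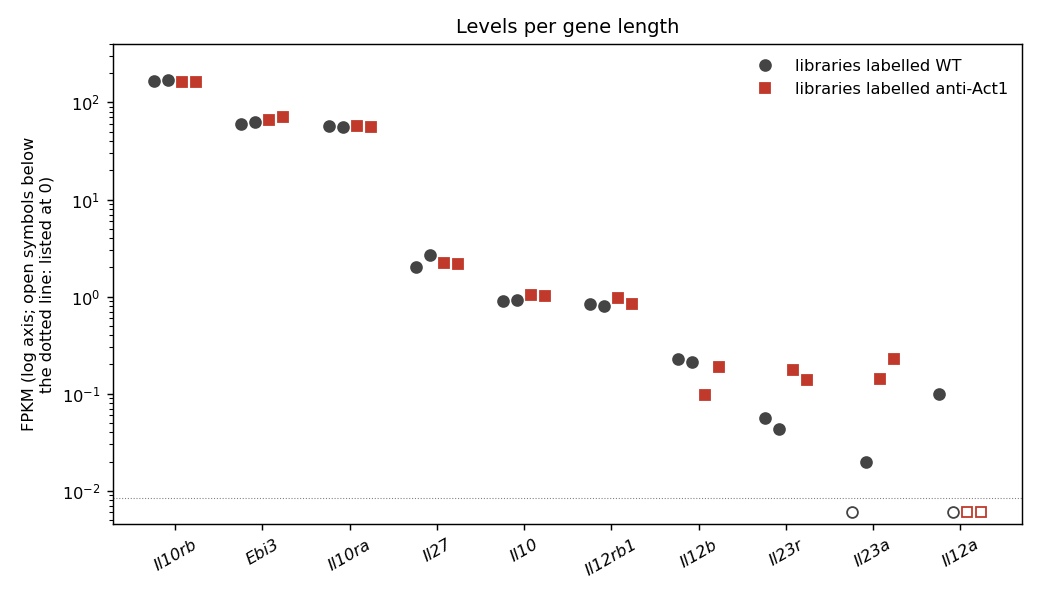
FPKM of each member (vertical axis, log scale) in the WT (grey circles) and anti-Act1 (red squares) libraries, ordered by the mean over all 4. Open symbols under the dotted line are libraries in which the gene was listed at 0. Il10rb, Ebi3 and Il10ra lay above 50 FPKM and the other 7 below 3 FPKM.

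Il10, which encodes the ligand IL-10, differed little between the groups. It had 75 and 91 counts in the WT libraries and 83 and 73 in the anti-Act1 libraries, or 1.16 and 1.199 against 1.34 and 1.34 CPM. Both anti-Act1 libraries were thus above both WT libraries, by a small margin. The log2 fold change of Il10 was 0.18 (SE 0.283, 95% interval -0.39 to 0.75, edgeR adjusted p = 0.721). A rise or a fall within that interval remained compatible with the counts. The receptor chain Il10ra was 64.5 and 60.5 times as abundant per length as Il10 in the WT libraries and 55.9 and 55.4 times in the anti-Act1 libraries.

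The subunits of IL-27 were present at unequal levels. Il27, which encodes the p28 chain, had 122 and 190 counts in the WT libraries and 129 and 114 in the anti-Act1 libraries, or 1.89 and 2.50 against 2.09 and 2.09 CPM. Both anti-Act1 libraries fell between the WT libraries. The log2 fold change of Il27 was -0.08 (SE 0.216, 95% interval -0.51 to 0.36, edgeR adjusted p = 0.852). It was -0.26 without WT library 1 and 0.14 without WT library 2, so that its sign rested on 1 library. Ebi3 encodes the partner chain, which is also known to pair with the Il12a chain as IL-35. It had 3854 and 4667 counts in the WT libraries and 4075 and 3870 in the anti-Act1 libraries, which were 59.6 and 61.5 against 66.0 and 70.9 CPM. Both anti-Act1 libraries exceeded both WT libraries, and the means were 60.6 ± 1.30 (SD, n = 2) and 68.4 ± 3.46 CPM (SD, n = 2). Ebi3 was thus 1.13-fold higher, or 0.18 on the log2 scale (SE 0.0586, 95% interval 0.06 to 0.29, edgeR adjusted p = 0.0261). The call was lost without WT library 1 (0.15, edgeR adjusted p = 0.0930) and without anti-Act1 library 2 (0.12, edgeR adjusted p = 0.377), and DESeq2 gave an adjusted p of 0.0526. Ebi3 was 29.97 and 23.3 times as abundant per length as Il27 in the WT libraries and 29.97 and 32.2 times in the anti-Act1 libraries, and these ratios overlapped. Of the exon bases of Ebi3, 23.4% are shared with Gm16712 on the opposite strand, and of those of Il27, 10.1% with Apobr on the opposite strand. These shares are from the GENCODE M21 annotation, with 1154 exon bases for Ebi3 and 1021 for Il27. The FPKM values imply lengths of 997 and 946 bases, so which stretches were counted is not known. The library kit does not mark strand. Reads of the shared stretches, if counted, thus cannot be told apart, and the values of both genes are uncertain to that extent.

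Ebi3 and Il23r were the called members with a RefSeq promoter entry, and the 250 bases before the annotated start of each (build GRCm38.p6) are shown because NF-κB is known to act on genes of this family. Capitals mark matches of an NF-κB motif, searched on both strands as GGGNNTTTCC and as the wider GGGNNNNNCC, which contains the first. The Ebi3 sequence is chr17:55952373-55952622 on the plus strand and the Il23r sequence is chr6:67491856-67492105 on the minus strand.

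Ebi3: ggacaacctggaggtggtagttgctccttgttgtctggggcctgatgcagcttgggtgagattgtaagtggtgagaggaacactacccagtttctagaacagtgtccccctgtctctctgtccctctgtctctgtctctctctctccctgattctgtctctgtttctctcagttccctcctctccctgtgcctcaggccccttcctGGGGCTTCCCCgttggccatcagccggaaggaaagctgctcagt

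Il23r: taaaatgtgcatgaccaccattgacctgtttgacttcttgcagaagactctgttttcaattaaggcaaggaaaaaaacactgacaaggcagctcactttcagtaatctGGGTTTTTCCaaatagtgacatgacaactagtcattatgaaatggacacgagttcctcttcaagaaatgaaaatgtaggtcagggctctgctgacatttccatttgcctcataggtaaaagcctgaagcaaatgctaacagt

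The Il23r window held 1 match of the narrow motif, at positions -142 to -133 from the start, which occurred in 1.41% of the 32851 promoters of the RefSeq table. The Ebi3 window held 2 overlapping matches of the wide motif, at -44 to -35 and -43 to -34, and 45.8% of promoters held at least 1 such match. The Il23r window also held the C/EBP motif TTGCNNAA, at -213 to -206, found in 9.56% of promoters. Neither window held the STAT motif TTCNNNGAA (7.02% of promoters), the interferon motif GAAANNGAAA (2.98%) or the AP-1 motif TGANTCA (6.75%). Of the members that were not called, Il12b held 0 of the 6 motifs in its window, and of the entries of Il12a 1 held 2 overlapping matches of the wide motif, at -113 to -104 and -112 to -103, and the other held 0. These are matches of letters and not measured binding.

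The chain that IL-12 and IL-23 share was scarce. Il12b, which encodes this p40 chain, had 37 and 40 counts in the WT libraries and 15 and 26 in the anti-Act1 libraries, or 0.573 and 0.527 against 0.243 and 0.476 CPM. Both anti-Act1 libraries were below both WT libraries, but they were far apart from each other. The log2 fold change of Il12b was -0.62 (SE 0.473, 95% interval -1.58 to 0.33, edgeR adjusted p = 0.397). It was -0.20 without anti-Act1 library 1 and -1.17 without anti-Act1 library 2.

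Il12a, which encodes the p35 chain of IL-12, had 8 counts in WT library 1 and 0 in each of the other 3 libraries. It was not tested. Counted against a floor of 3 counts over both anti-Act1 libraries, the 8 WT counts were 2.25-fold higher per summed total, which leaves out the counting error of the WT reads. With that error the ratio of summed counts per summed totals was 0 with a 95% exact binomial interval of 0 to 0.695, and with counts divided by 2, as given for genes of few reads below, the interval spanned equality. This rested on WT library 1 alone, since without it both groups were at 0. Without anti-Act1 library 1 the same fold was 1.06, without anti-Act1 library 2 it was 1.19 and without WT library 2 it was 4.87. A count of 0 allows up to 0.0486 and 0.0549 CPM in the anti-Act1 libraries and 0.0395 CPM in WT library 2.

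Il23a, which encodes the p19 chain that is particular to IL-23, had the largest difference of the tested members. It had 0 and 2 counts in the WT libraries and 12 and 17 in the anti-Act1 libraries, or 0 and 0.0263 against 0.194 and 0.311 CPM. Both anti-Act1 libraries were above both WT libraries, and both WT values were below the floor of 3 counts. The 29 counts against 2 gave a ratio of 17.2 per summed total, with a 95% exact binomial interval of 4.35 to 149. The edgeR adjusted p was 0.00401, and the fitted log2 fold change of 3.97 (SE 1.10, 95% interval 1.94 to 6.35) depends on the prior count that the tool adds to so few reads. Il23a passed the filter on low counts only through the anti-Act1 libraries, and without the filter its edgeR adjusted p was 0.0221. Without WT library 1 the edgeR adjusted p was 0.0639 and the ratio was 9.27 (2.35 to 80.2). Without WT library 2 the remaining WT count was 0, the lower end of the interval was 4.03 and the edgeR adjusted p was 0.0168. Without anti-Act1 library 1 the call remained (edgeR adjusted p = 0.0197), with a ratio of 21.4 (5.07 to 191), and without anti-Act1 library 2 Il23a no longer passed the filter, at a ratio of 13.5 (3.004 to 124). DESeq2 gave an unadjusted p of 0.00554 and no adjusted p.

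Low counts in these tables were more often even than odd, which bears on every member with few reads. In the 4 libraries 190 to 204 genes had 1 count and 579 to 628 had 2 counts, and of the genes with 1 to 10 counts 69.2% to 71.6% were even. Among genes with over 1000 and up to 2000 counts the share was 48.2% to 50.9%. Read pairs were sequenced, and whether reads or pairs were counted was not given in the sources used here. With the counts of each library divided by 2 and rounded down, Il23a had 14 against 1, a ratio of 16.6 (95% exact binomial interval 2.53 to 702). Il12a had 0 against 4, with an interval of 0 to 1.80 that spans equality, and Il23r had 22 against 8, a ratio of 3.26 (1.40 to 8.48). All these intervals cover counting error only.

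Of the 3 tested genes whose pattern over the 4 libraries was most like that of Il23a, by Euclidean distance of centred log2(CPM + 1), Kbtbd13 was the nearest (0.0146), ahead of Gm7609 (0.0299) and the transporter gene Abcc1 (0.0324). Kbtbd13 had 4 and 8 counts in the WT libraries and 17 and 22 in the anti-Act1 libraries. Abcc1, an abundant gene, had 143 and 143 against 170 and 184 CPM. This measure follows the absolute size of small changes, and a gene near 0 is close to any gene that moved little in the same libraries. Like Il23a, Kbtbd13 and Gm7609 reached the CPM of the filter (0.159) only in the anti-Act1 libraries, so their likeness partly reflects that filter.

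The IL-10 receptor chains differed between the groups by less than the spread between libraries. Il10ra had 200 and 194 CPM in the WT libraries and 201 and 198 in the anti-Act1 libraries. Il10rb had 311 and 321 CPM against 312 and 314. The groups overlapped for both chains. The log2 fold change was 0.02 for Il10ra (SE 0.0511, 95% interval -0.09 to 0.12, edgeR adjusted p = 0.870) and -0.01 for Il10rb (SE 0.0504, 95% interval -0.11 to 0.09, edgeR adjusted p = 0.897). These intervals were the narrowest among the members, and changes within them remained compatible with the counts. Il10rb was 2.85 and 3.04 times as abundant per length as Il10ra in the WT libraries and 2.86 and 2.91 times in the anti-Act1 libraries. Of the 3808 exon bases of Il10rb in the GENCODE M21 annotation, 14.9% are shared with Gm21970 on the same strand. The FPKM values imply a length of 1900 bases for Il10rb, so which stretches were counted is not known. Reads of shared stretches, if counted, cannot be assigned to 1 of the genes.

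Il12rb1, the chain shared by the IL-12 and IL-23 receptors, had 148 and 168 counts in the WT libraries and 167 and 130 in the anti-Act1 libraries, or 2.29 and 2.21 against 2.70 and 2.38 CPM. Both anti-Act1 libraries were above both WT libraries, but the nearest libraries of the groups were closer to each other than the anti-Act1 libraries were. The log2 fold change of Il12rb1 was 0.18 (SE 0.203, 95% interval -0.23 to 0.59, edgeR adjusted p = 0.609). It was 0.08 without anti-Act1 library 1 and 0.27 without anti-Act1 library 2.

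Il23r, the chain particular to the IL-23 receptor, had 9 and 8 counts in the WT libraries and 27 and 19 in the anti-Act1 libraries, or 0.139 and 0.105 against 0.437 and 0.348 CPM. The groups did not overlap, and both anti-Act1 libraries had more than 2 times the CPM of either WT library. The 46 counts against 17 gave a ratio of 3.21 per summed total (95% exact binomial interval 1.81 to 5.97). The fitted log2 fold change of Il23r was 1.68 (SE 0.612, 95% interval 0.47 to 2.93, edgeR adjusted p = 0.0408). Il23r passed the filter on low counts only through the anti-Act1 libraries, and without the filter its edgeR adjusted p was 0.137. The call was also lost when any 1 library was left out, with edgeR adjusted p of 0.111 and 0.248 without WT library 1 and 2 and of 0.312 and 0.140 without anti-Act1 library 1 and 2. The log2 fold change stayed between 1.49 and 1.88 in those fits. DESeq2 gave an adjusted p of 0.173, and edgeR with replicate number as a block gave Il23r an adjusted p of 0.0643. Il12rb1 was 14.8 and 18.9 times as abundant per length as Il23r in the WT libraries and 5.56 and 6.15 times in the anti-Act1 libraries.

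Of the 8 other receptor chains, kinases and STATs of these cytokines described here, 0 passed the edgeR test, with a median log2 fold change of -0.07. At an unadjusted p under 0.05 there were 2 (Jak2 and Stat3), and DESeq2 called 0. The log2 difference was -0.12 for Stat3, which carries the IL-10 signal (edgeR adjusted p = 0.116), and 0.16 for Jak2, a kinase of the IL-12 and IL-23 receptors (edgeR adjusted p = 0.0521). Jak2 was called in 4 of 14 alternative fits, which were those without anti-Act1 library 2 (0.23, edgeR adjusted p = 0.0313), with DESeq2's size factors (0.0474), with at least 10 counts in every library (0.0441) and with counts divided by 2 (0.0408). Stat3 was called in 1, without WT library 1 (-0.16). Other libraries left out moved both genes closer to no change. The log2 difference of Jak2 was 0.08 without anti-Act1 library 1, and that of Stat3 was -0.07 without WT library 2. The second IL-12 receptor chain Il12rb2 had 103 and 143 counts against 94 and 61, a log2 difference of -0.40 (edgeR adjusted p = 0.311) that was -0.64 without anti-Act1 library 1 and -0.19 without anti-Act1 library 2. Il27ra, the receptor chain that binds IL-27, had 52 and 66 counts against 43 and 66, a log2 difference of 0.17 (edgeR adjusted p = 0.786) that was 0.53 without anti-Act1 library 1 and -0.27 without anti-Act1 library 2, so that its sign rested on 1 library. Stat3, Jak2, Il12rb2 and Il27ra are given for their roles, with their values known. Of 11 other ligands and receptors of the IL-10 family, 6 (Il20, Il24, Ifnl2, Ifnl3, Il20ra and Il22ra1) had 0 counts in all libraries, and 4 others had at most 4 counts in any library. The 1 that could be tested was Il20rb, a receptor chain of IL-20 cytokines. It had 118 and 102 counts in the WT libraries and 86 and 60 in the anti-Act1 libraries. Its log2 difference was -0.34 (edgeR adjusted p = 0.432), with -0.11 without WT library 1 and -0.55 without WT library 2.

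**Figure D3:**
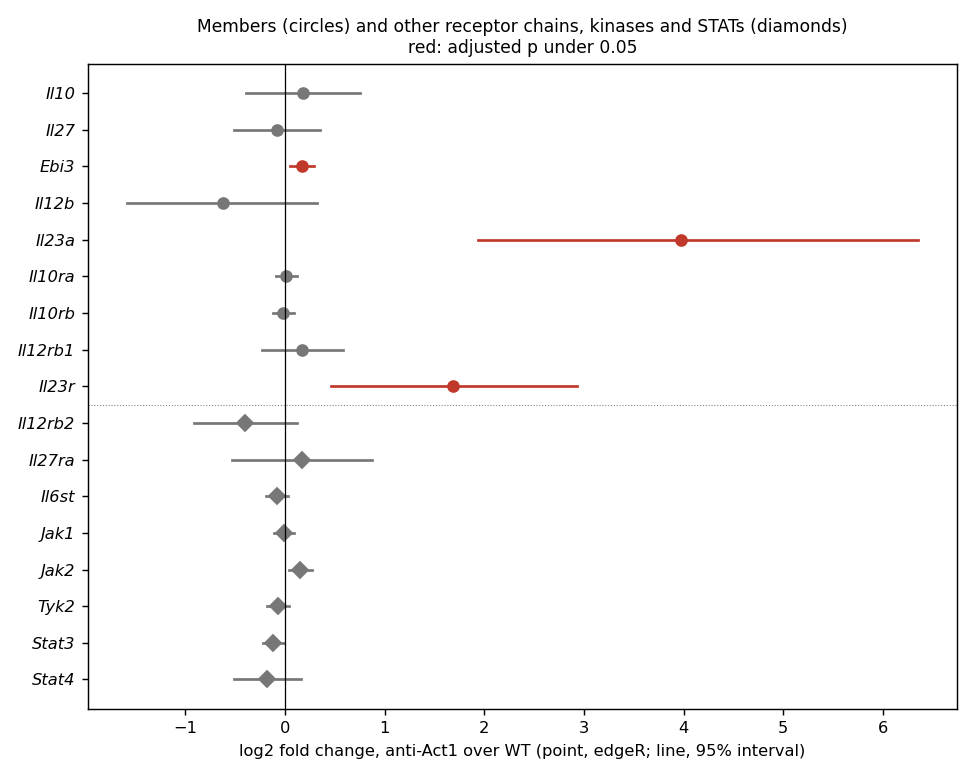
Log2 fold change of the libraries labelled anti-Act1 over those labelled WT (horizontal axis) for the 9 tested members (circles) and 8 other receptor chains, kinases and STATs (diamonds), with 95% intervals from edgeR. Red marks an adjusted p under 0.05, which Il23a, Il23r and Ebi3 passed. The interval of Il23a reaches from 1.94 to 6.35.

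Genes known to be induced by IL-10 in macrophages did not move one way. Of 12 listed, 5 were higher and 1 was lower by the edgeR test, beside 10.9% and 9.76% of all genes tested, and the median log2 fold change was 0.05. Socs3, which limits STAT3 signalling, had 5.49 and 4.62 CPM in the WT libraries and 7.92 and 7.20 in the anti-Act1 libraries (log2 fold change 0.58, edgeR adjusted p = 0.000827), and it lost its call in 1 of 14 alternative fits, limma on unfiltered log2(FPKM + 1) (adjusted p = 0.0761). Hmox1, heme oxygenase 1, had 694 and 669 against 952 and 959 CPM (0.49, edgeR adjusted p = 7.08e-11). Ddit4, an inhibitor of mTOR signalling, was higher by 0.61 on the log2 scale (edgeR adjusted p = 3.15e-10) and Il1rn, the IL-1 receptor antagonist, by 0.25 (edgeR adjusted p = 0.000168). The fifth, Nfil3, had 0.15 (edgeR adjusted p = 0.0418) and is named after its value was seen. Nfil3 lost its call in 9 of 14 alternative fits, among them those without WT library 2 (edgeR adjusted p = 0.171), anti-Act1 library 1 (0.272) or anti-Act1 library 2 (0.154) and the replicate block (0.0776). The lower gene was Cd163, the haptoglobin-hemoglobin scavenger receptor, with 79 and 78 counts against 28 and 18 (-1.51, edgeR adjusted p = 0.00245).

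Transcription factors known to act on Il10, Il12b or Il23a were also split. Of 12 listed, 3 were higher and 4 were lower, beside 10.9% and 9.76% of all genes tested, with a median log2 fold change of -0.01. Bhlhe40, a repressor of Il10, had 93.3 and 102 CPM in the WT libraries and 134 and 131 in the anti-Act1 libraries (log2 fold change 0.44, edgeR adjusted p = 1.03e-08), and Atf3 (0.18, edgeR adjusted p = 0.00745) and Nfkb1 (0.15, edgeR adjusted p = 0.0465) were the others that were higher. Nfkb1 lost its call in 10 of 14 alternative fits, among them DESeq2 (adjusted p = 0.0536) and those without WT library 2 (edgeR adjusted p = 0.193), anti-Act1 library 1 (0.239) or anti-Act1 library 2 (0.200), with the replicate block at 0.0845. Atf3 lost its call without anti-Act1 library 1 (edgeR adjusted p = 0.0562) and without anti-Act1 library 2 (0.108). Cebpb, an activator in myeloid cells, had 351 and 212 CPM against 170 and 133. The groups of Cebpb did not overlap, but the WT libraries differed widely from each other, and its log2 fold change of -0.89 (edgeR adjusted p = 1.09e-09) was -0.48 without WT library 1 and -1.21 without WT library 2. DESeq2 gave Cebpb an adjusted p of 0.118. Irf5, an activator of Il12b and Il23a, was lower (-0.21, edgeR adjusted p = 0.00183), as were Creb1 (-0.21, edgeR adjusted p = 0.0107) and Maf (-0.19, edgeR adjusted p = 0.0100), which both act on Il10. Without WT library 2 the log2 fold changes of Maf and Creb1 were -0.09 and -0.13 and their calls were lost (edgeR adjusted p = 0.364 and 0.217). Maf also lost its call without anti-Act1 library 2 (edgeR adjusted p = 0.250) and with DESeq2 (adjusted p = 0.314), and Creb1 without anti-Act1 library 1 (edgeR adjusted p = 0.0523) or anti-Act1 library 2 (0.142). Of the 7 factors called, 4 stayed called without WT library 2, 4 without anti-Act1 library 1 and 3 without anti-Act1 library 2.

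**Figure D4:**
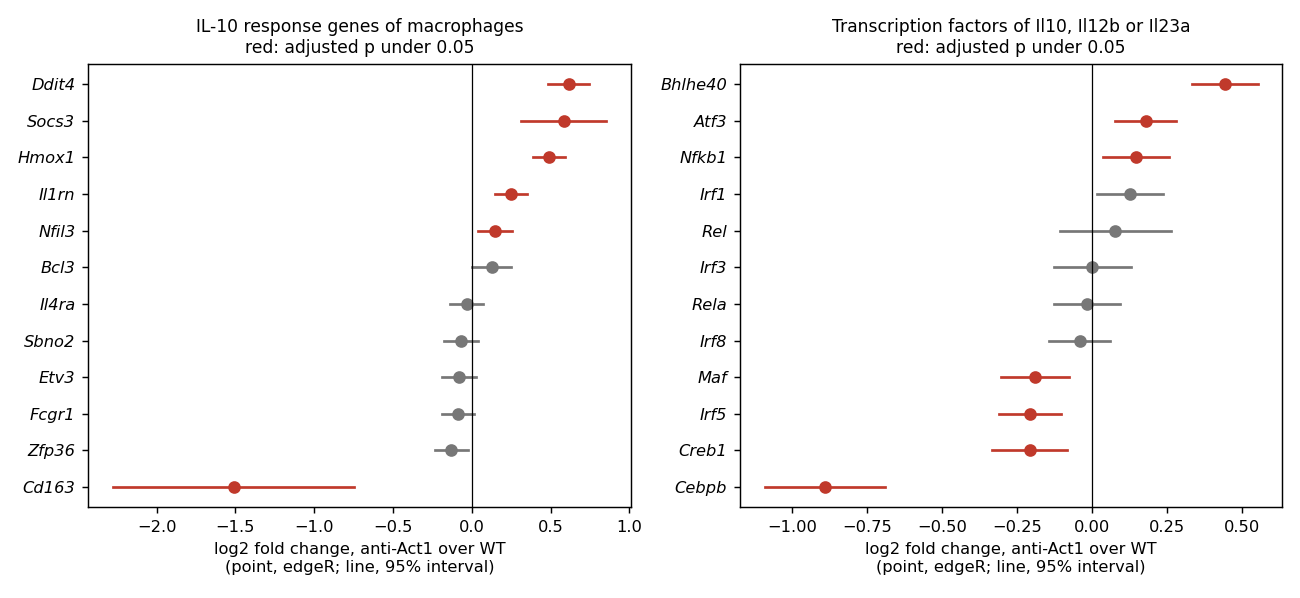
Log2 fold change of the libraries labelled anti-Act1 over those labelled WT (horizontal axes) with 95% intervals from edgeR, for 12 IL-10 response genes (left) and 12 transcription factors of Il10, Il12b or Il23a (right). Red marks an adjusted p under 0.05. Both lists hold genes on each side of 0, from -1.51 (Cd163) to 0.61 (Ddit4) on the left and from -0.89 (Cebpb) to 0.44 (Bhlhe40) on the right.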

How the data were processed

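Per the paper's methods, the authors cleaned the read pairs of adapters and poor sequence and aligned them with TopHat. Per the labels, Bowtie 0.12.2 and HTSeq 0.6.1 were used, and the builds mm8 and mm10 are named without a role. The authors deposited whole counts of reads per gene without normalization, and FPKM values, which were these counts per gene length and library total. The paper's own comparison used DESeq2. The methods name biological replicates without giving the animals behind each library.

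Counts were fitted with edgeR 4.0.16 (R 4.3.3): TMM normalization, filterByExpr (10 counts), condition as the only term, and a two-sided quasi-likelihood F test with p-values adjusted by Benjamini and Hochberg's method across 12494 tested genes. A gene was called at an adjusted p under 0.05. An exact permutation test of 1 value in 2 against 2 libraries cannot go below p = 0.333, so none was used. Members with fewer than 10 counts in each library of a group were given as ratios of summed counts with exact (Clopper-Pearson) 95% intervals, and a group at 0 as a bound at 3 counts. With 55435063 to 75062945 counts per library, 3 counts correspond to 0.0395 to 0.0549 CPM.

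Other fits used DESeq2 1.42.0, its size factors in edgeR, library totals without TMM, and all genes with a count. Further fits used only genes with 10 or more counts in each library, replicate number as a block, and all but 1 library in turn. Fits with limma 3.58.1 used log2(FPKM + 1) with and without a filter (FPKM of at least 1 in 2 libraries), and log2(FPKM + 0.1) with that filter. Counts divided by 2 were added after the data were seen. The scripts were tested on simulated counts. The members, lists and tests were chosen with earlier results of these data known. The genes named are the members, the label checks, in each pathway list the called genes (at most 4 in each direction) and those at 0 in all libraries, the most abundant gene of each marker list, and the 3 genes nearest to Il23a; exceptions are stated, and 1 gene of the receptor, kinase and STAT list is not reported here and was left out of its counts. Promoters (4 of 10 members had an entry) are from RefSeq and overlapping exons from GENCODE M21. Libraries of 1 group differed by more than sampling noise (chi-square per degree of freedom 7.45 and 10.8), so none was the same library deposited again; whether they came from separate animals was not tested.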

Additional observations from a re-analysis of the deposited data

How the results depend on the processing

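The number of genes called was 2586 (1366 higher, 1220 lower) and stayed within 1.5 times of this in the other fits, except for 1091 with unfiltered log2(FPKM + 1) in limma and the range of 1671 to 2543 when each library was left out. The split was 1105 higher and 1411 lower without composition normalization, 913 and 1057 with limma on log2(FPKM + 1), and 908 and 1053 on log2(FPKM + 0.1). Of the members, 3 were called, 0 with DESeq2, 1 with at least 10 counts in every library, 0 with limma on log2(FPKM + 1) or log2(FPKM + 0.1), where 5 were tested, and 0 to 2 when each library was left out (0 without WT library 1 or anti-Act1 library 2). At least 10 counts in every library removed Il23a and Il23r by construction. The limma fits with a filter did not test Il23a or Il23r, since both were below its FPKM limit. Without anti-Act1 library 2 Il23a did not pass the filter on low counts, and DESeq2 gave it no adjusted p. For the other losses the cause was not tested. Without composition normalization Ebi3 had an adjusted p of 0.0703, and without a filter Il23r had one of 0.137. No called member changed sign in any alternative. With the replicate number as a block (replicate block), 2406 genes and 2 members were called, Il23r having an adjusted p of 0.0643. Same-numbered libraries did not deviate together (r = -0.03 across genes), so the numbers were not read as pairs. With counts divided by 2, chosen after seeing the data, Ebi3 and Il23r were called and Il23a was not tested. Groups of 2 libraries and counts below 50 for Il12a, Il12b, Il23a and Il23r limit what could be detected.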
